A study of Mus musculus with 4 samples.

Results

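The charged multivesicular body proteins (CHMPs) are the subunits of ESCRT-III, and 9 of their genes were examined here in C2C12 cells, an established mouse myoblast line, with and without depletion of *Fxr1*. The members were all probes on the array, control probes left out, that carry the name *Chmp1a*, *Chmp1b*, *Chmp2a*, *Chmp2b*, *Chmp4b*, *Chmp4c*, *Chmp5*, *Chmp6* or *Chmp7*. These were 13 of 55681 probes and 22 of 59305 spots, for 9 of 36413 gene names. *Chmp5* was chosen from its difference between siFxr1 and siControl on these same arrays, since the study, which asked which transcripts change when *Fxr1* is depleted, lists it among those called changed, and the other 8 genes were chosen as its family. Its difference between conditions, and those of its partners beside it, are therefore given as a description with no test.

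The siFxr1 group was C2C12 myoblasts transiently transfected with siRNAs against *Fxr1*, and the siControl group was the same line transfected with a commercial random siRNA of matching GC content. Both were collected at the same time after transfection, according to the study's methods, and the labels give no other genotype or agent for either group. There were 2 experiments, and each gave 1 siFxr1 and 1 siControl array on a shared slide, so 4 one-colour arrays in all. The RNA integrity number was 8 for siFxr1 in experiment 1 and 9 for the other arrays. A single cell line and 1 array per condition and experiment limit what the values can be generalised to. Of the probes, between 45.4% and 52.9% were well above background on an array, and no spot of a member was saturated. *Fxr1* itself had normalized log2 signals of 10.15 and 10.77 in siFxr1 against 13.85 and 13.71 in siControl, a difference of -3.31 ± 0.29 (SE, n = 2 arrays per condition). Its paralogs *Fxr2* and *Fmr1* differed by -0.11 and 0.51. Of 5 myoblast markers, 4 were well above background on every array and *Myf5* on none.

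ESCRT-III subunits are small related proteins that are soluble in the cytosol and assemble into filaments on membranes, where they constrict and cut membrane necks from the inside. This scission makes the vesicles of multivesicular bodies, through which ubiquitinated receptors reach the lysosome, and it also serves the last step of cell division, the closing of the nuclear envelope and the repair of the plasma membrane, a site of frequent injury in muscle. CHMP6 and CHMP7 start filaments, CHMP4 forms their core, CHMP3 and CHMP2 join at their ends, and the ATPase VPS4 with its cofactor LIP5, encoded by *Vta1*, takes them apart. CHMP1, IST1 and CHMP5 are accessory subunits, and CHMP5 binds LIP5.

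2 sequences help to place the results. The first is the siRNA that the study designed against exon 14 of *Fxr1*, an exon shared by all its mRNAs. It is taken here as the siRNA of the siFxr1 group, although the labels say only siFxr1 and the study also used another siRNA against a different exon. The second is the stretch of 250 bases just before the RefSeq start of *Chmp5*, at chr4:40948303-40948552 on the plus strand of GRCm38.p6. It is shown because the gene next to *Chmp5*, *Bag1*, starts on the other strand with 258 bases between the 2 starts, so that the RefSeq promoter windows of both genes, each 300 bases long, share 242 bases. Capitals mark the letters GGGCGG or, on the other strand, CCGCCC, the core of a GC box.
siFxr1: gcaauccauacagcuuacuugaua
Chmp5 upstream: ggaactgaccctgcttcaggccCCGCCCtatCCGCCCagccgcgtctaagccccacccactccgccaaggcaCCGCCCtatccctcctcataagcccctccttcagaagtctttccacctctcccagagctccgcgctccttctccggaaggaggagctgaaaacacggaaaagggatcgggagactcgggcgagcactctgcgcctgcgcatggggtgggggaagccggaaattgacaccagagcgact

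The *Chmp5* window held 3 such matches, and at least as many were found in 3519 of the 32851 RefSeq promoter windows, while 35.7% of the windows held at least 1. The letters CCGGAA or TTCCGG, which lie at the core of ETS factor sites, occurred 2 times in it, 3.59% of windows held at least as many, and 14.9% held at least 1. The 2 motifs do not overlap in this stretch. The GC content of the window of 300 bases was 62.3%, against a median of 52.7% over all windows. Of the 9 members, 5 had a promoter window. GC box letters were found 5 times in that of *Chmp1a*, 1 time in that of *Chmp4b* and not in those of *Chmp2a* and *Chmp2b*. These are matches of letters and not measured binding. *Chmp1b*, *Chmp4c*, *Chmp6* and *Chmp7* had no entry.

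Across all 55681 probes, limma called 0 probes changed between siFxr1 and siControl, the members included, whether by a B value above 0 or by an adjusted p (Benjamini-Hochberg) under 0.05, which is 0% of probes by either rule. An unadjusted p under 0.05 was found for 2764. The lowest adjusted p was 0.950. The study, with the same B threshold, did report changed transcripts, *Chmp5* among them. It checked others of its list by quantitative RT-PCR, and did so again with a second siRNA against another exon of *Fxr1*. That list was not obtained again here, and the cause was not tested. Differences between conditions are therefore read by size and by whether the arrays of the groups overlap, among the 25523 detected probes, those well above background in 1 condition or more on both its arrays. The median difference over these probes was 0.02 on the log2 scale.

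*Chmp5* was the one member whose siFxr1 signal was lower by 2-fold or more in each experiment, against 1.72% of all detected probes, a share printed for scale since this contrast chose the gene. Its single probe (A_52_P246753, NM_029814, chr4:40912153-40912212 on mm9, by the array's annotation) gave normalized log2 signals of 12.31 and 12.37 in the siFxr1 arrays of experiments 1 and 2, and of 14.44 and 14.03 in the siControl arrays. The siFxr1 values were nearly equal and both were below both siControl values. The means were 12.34 ± 0.04 and 14.23 ± 0.29 (SD, n = 2), a difference of -1.89 ± 0.22 (SE) or 3.72-fold. Within experiment 1 the difference was -2.13 and within experiment 2 it was -1.66. Before normalization between arrays, the background-corrected intensity of the same spot was 4449 and 5733 units in siFxr1 and 25300 and 14960 in siControl. Among the 11476 probes with a lower mean in siFxr1 that were detected on every array, 31, *Chmp5* included, were lower by at least as much.

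**Figure D1:**
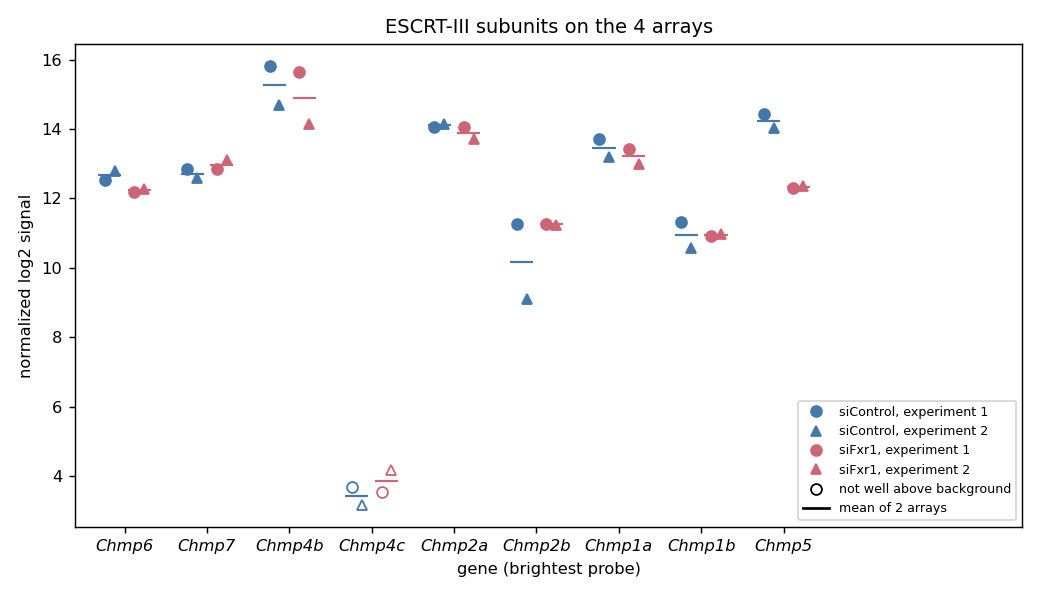
Normalized log2 signal (vertical axis) of the brightest probe of each ESCRT-III gene (horizontal axis, from filament starters on the left to accessory subunits on the right) on each of the 4 arrays, with colours for the conditions, circles and triangles for experiments 1 and 2, and lines for the mean of 2 arrays. Levels compare within a gene only. The siFxr1 values of *Chmp5*, 12.31 and 12.37, sit apart from its siControl values of 14.44 and 14.03, the siControl array of experiment 2 stands alone for *Chmp2b*, and open symbols show that *Chmp4c* was not well above background.

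The filament starters moved little. For *Chmp6* (A_66_P121474, chromosome 11), whose product links ESCRT-II to ESCRT-III, the signals were 12.19 and 12.27 in siFxr1 against 12.54 and 12.79 in siControl. The groups did not overlap, but the difference was only -0.44 ± 0.18 (SE, n = 2 per condition). A second *Chmp6* probe had a mean difference of -0.32 and overlapped between conditions. It was 0.16 in experiment 1 and -0.80 in experiment 2, so the 2 probes differ in sign in experiment 1 only. For *Chmp7* (A_51_P297336, chromosome 14), whose product brings ESCRT-III to the nuclear envelope, siFxr1 gave 12.84 and 13.10 and siControl 12.84 and 12.59. The groups overlapped and were equal to 2 decimals in experiment 1, and the difference was 0.25 ± 0.20 (SE).

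The core subunit *Chmp4b* was measured by 3 probes on chromosome 2, all lower in siFxr1 in both experiments. The brightest (A_55_P2008538) gave 15.65 and 14.14 in siFxr1 against 15.82 and 14.70 in siControl. The conditions overlapped because both arrays of experiment 1 were above both arrays of experiment 2. The difference was -0.37 ± 0.75 (SE), an error that includes the difference between experiments. It was -0.17 in experiment 1 and -0.57 in experiment 2, and with the experiment in the fit the SE was 0.22. The other two probes differed by -0.59 and -0.38, also with overlap. Its paralog *Chmp4c* was not well above background on any array with either of its probes, whose log2 signals ran from 2.59 to 4.17, so no fold is given for it.

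Of the subunits that join filament ends, *Chmp2a* (A_51_P155345, chromosome 7) had signals of 14.07 and 13.72 in siFxr1 and of 14.07 and 14.13 in siControl. The groups did not overlap, but they were 0.01 apart in experiment 1, and the difference was -0.21 ± 0.20 (SE). For *Chmp2b* (A_51_P220896, chromosome 16), siFxr1 gave 11.27 and 11.24 and siControl 11.25 and 9.10. 3 of the 4 arrays were nearly equal, and the difference of 1.08 ± 0.86 (SE) rested on the siControl array of experiment 2, without which it was -0.00. That spot read 616.8 intensity units, against 2049 to 2692 on the other arrays, and was not marked as an outlier.

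The accessory subunits other than *Chmp5* overlapped between conditions. *Chmp1a* (A_51_P128147, chromosome 8), the member with the most spots, was printed 10 times per array. The SD between these spots within an array, outlier spots included, was 0.03 to 0.13 on the log2 scale. On every array but siControl of experiment 2, 1 spot was marked as an outlier and left out of the mean. *Chmp1a* gave 13.42 and 13.00 in siFxr1 against 13.70 and 13.19 in siControl, a difference of -0.23 ± 0.30 (SE) that was negative in both experiments. *Chmp1b* (A_52_P338110, chromosome 18) gave 10.92 and 10.97 in siFxr1 and 11.31 and 10.58 in siControl. It was lower in siFxr1 by a log2 difference of -0.39 in experiment 1 and higher by 0.38 in experiment 2, which left a mean difference of -0.00 ± 0.32 (SE).

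Set against its partners, *Chmp5* stood outside their range. The 7 partners well above background had differences from -0.44 to 1.08 with a median of -0.21, and the difference of *Chmp5* minus that of the lowest of them was -1.46. *Chmp5* minus the median of the 7 was -1.69, and it was -1.96 in experiment 1 and -1.48 in experiment 2. By the brightest probe, 4 partners were lower in siFxr1 in both experiments (*Chmp1a*, *Chmp2a*, *Chmp4b*, *Chmp6*) and 1 was higher (*Chmp2b*). Another 2 differed in direction between the experiments (*Chmp1b*, *Chmp7*). In experiment 1 the differences of *Chmp2a*, *Chmp2b* and *Chmp7* were only -0.005, 0.015 and -0.002, so their signs there carry little weight. Of the 8 detected members 0 were higher by 2-fold or more in each experiment, beside 1.94% of detected probes. Both siFxr1 arrays were below both siControl arrays for 3 of the 8, namely *Chmp5*, *Chmp2a* and *Chmp6*, beside 14.8% of all detected probes, and so for 2 of the 7 partners. The opposite order was seen in 0 of the 8, beside 15.9%.

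**Figure D2:**
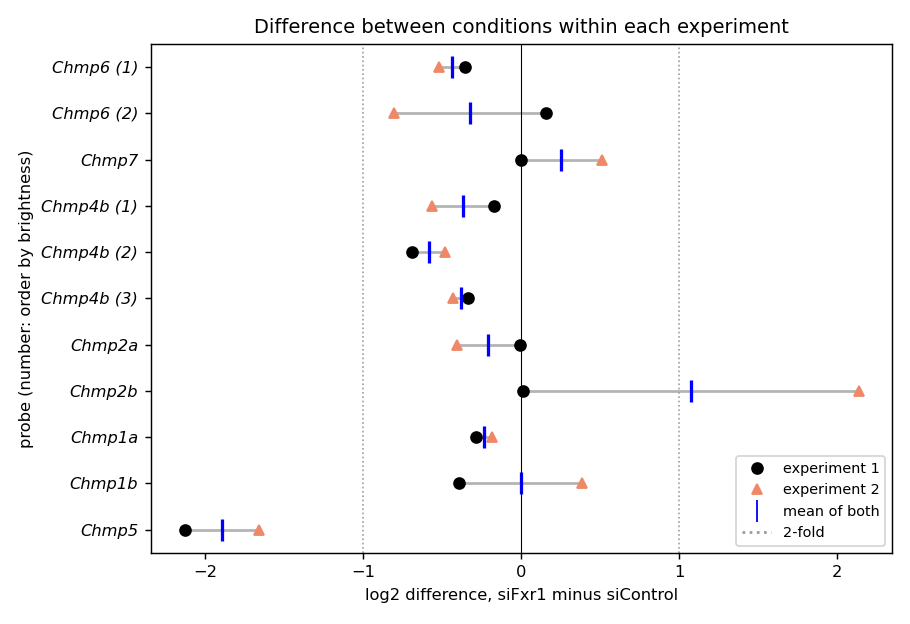
Log2 difference of siFxr1 minus siControl (horizontal axis) for each of the 11 member probes above background (vertical axis), with a circle for experiment 1, a triangle for experiment 2, a blue tick for their mean and dotted lines at 2-fold. *Chmp5*, at -2.13 and -1.66, is the only probe with both points past 2-fold, and the 2 points of *Chmp2b*, at 0.01 and 2.14, are the farthest apart.

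The rest of the ESCRT pathway was followed in 35 genes outside the members, all with a probe above background. By the brightest probe of each, none was called (adjusted p), as over all probes. An unadjusted p (limma) under 0.05 was found for 2, beside 2764 of all 55681 probes. By size, 1 was 2-fold or more lower in siFxr1 in each experiment, beside 1.72% of detected probes, and 0 were higher, beside 1.94%. Both siFxr1 arrays were below both siControl arrays for 6 genes and above for 4, which is near the shares of 14.8% and 15.9% over all detected probes. Dimmer probes that carry the names *Vps4b* and *Ulk3* were also past 2-fold lower in each experiment, and are given with their genes. The median difference of the 35 was -0.08, beside 0.02 over all probes above background.

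The gene past 2-fold by its brightest probe was *Stam2*, an ESCRT-0 subunit that binds ubiquitinated cargo, with signals of 6.74 and 6.26 in siFxr1 against 8.51 and 7.63 in siControl, a difference of -1.57 ± 0.42 (SE). Its paralog *Stam* differed by 0.43 in the other direction. In ESCRT-I, which bridges cargo and membrane budding, *Mvb12b* (*Fam125b* on the array) gave 11.74 and 11.57 in siFxr1 and 12.66 and 12.60 in siControl, a difference of -0.98 ± 0.16 (SE) that was just under 2-fold in experiment 1 and just over it in experiment 2. *Vps37c* differed by -0.48. In ESCRT-II, *Vps25* was below siControl in both experiments with all 3 of its probes (-0.74, -0.52 and -0.62), whereas *Snf8* differed by 0.22.

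Among the genes closest to *Chmp5* in function, the differences were small by the brightest probe. *Vta1*, named here for its binding of CHMP5 and not for its size of change, differed by -0.27 with one probe and by 0.08 with another. *Vps4b*, an ATPase that takes filaments apart, differed by 0.30 with its brightest probe and by -1.22 with a dimmer one, so its direction depends on the probe. *Ptpn23*, which recruits ESCRT-III to endosomes, differed by -0.46 ± 0.78 (SE). Of the other ESCRT-III genes, *Ist1* differed by -0.22 and *Chmp3* by 0.09. Among deubiquitinases and regulators the largest differences by the brightest probe were those of *Spast*, a microtubule-severing enzyme with an ESCRT-III binding domain, at 0.64 ± 0.37 (SE), and of *Cc2d1b*, which binds CHMP4, at -0.58 ± 0.36 (SE). *Ulk3*, a kinase that phosphorylates ESCRT-III subunits, differed by -0.32 ± 0.44 (SE) with its brightest probe. A dimmer probe of that name differed by -1.36 ± 0.48 (SE) without overlap of the groups (2.34-fold lower in experiment 1 and 2.83-fold in experiment 2). The array's annotation places the dimmer probe on chromosome 5 and the brightest on chromosome 9. Whether the dimmer one measures *Ulk3* was not tested.

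**Figure D3:**
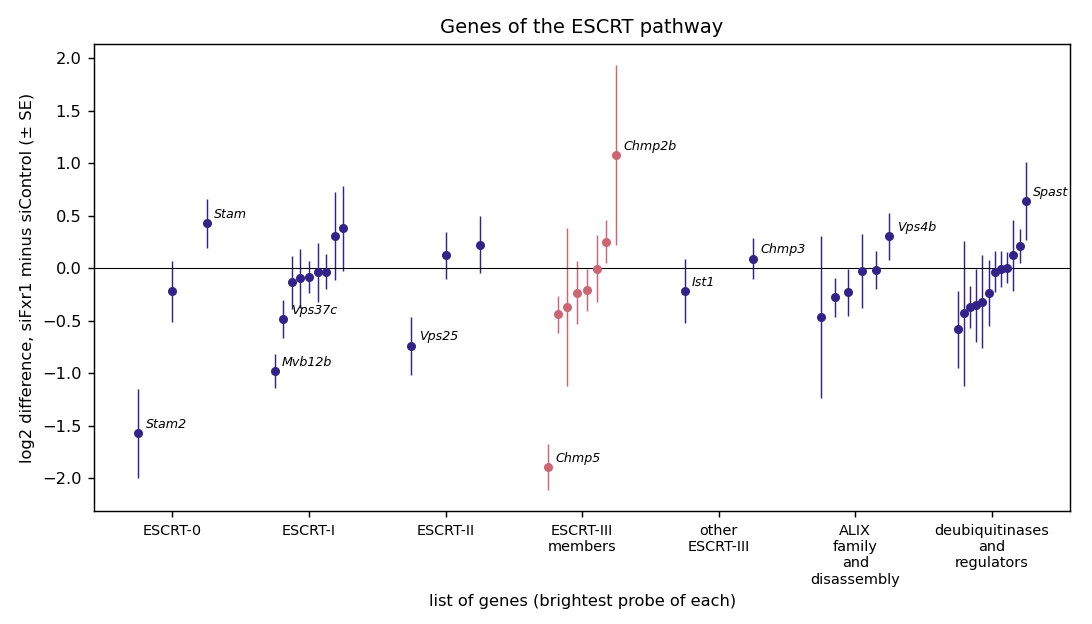
Log2 difference of siFxr1 minus siControl (vertical axis) with its SE, by the brightest probe, for the ESCRT genes above background in 7 lists (horizontal axis), the members in red. *Chmp5* at -1.89 and *Stam2* at -1.57 lie lowest, and the other genes outside the members run from -0.98 to 0.64.

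The neighbours of *Chmp5* on chromosome 4 were described because *Bag1* shares its start region. *Bag1*, which encodes a cochaperone of HSP70, was lower in siFxr1 by less than *Chmp5*. Its brightest probe gave 15.69 and 15.67 in siFxr1 against 16.61 and 16.06 in siControl, with no overlap and a difference of -0.66 ± 0.26 (SE), and a second probe differed by -0.51 with overlap. *Nfx1*, which encodes a zinc finger protein and lies on the other side of *Chmp5*, had 3 probes with differences of -0.28, -0.68 and -0.75, and the first of them was higher in siFxr1 in experiment 1. *Spink4* and *Aqp7* also lie within 100 kb. *Spink4* went the other way by 1.54 ± 1.62 (SE), past 2-fold in each experiment (1.46 in experiment 1 and 1.62 in experiment 2). Its groups overlapped, since it was also higher in experiment 1 than in experiment 2, by 2.91. *Aqp7* differed by -0.03 ± 0.35 (SE). None of these genes was called.

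By the 4 centred values alone, 5 genes were most like *Chmp5* among 17776 genes whose brightest probe was well above background on all arrays. The Euclidean distance on the log2 scale was 0.154 for *Plcb4*, 0.269 for *Exo5* (*Dem1* on the array), 0.269 for *Dnase1l1*, 0.307 for *Cav2* and 0.320 for *Ndrg1*. Likeness over 4 arrays shows only a similar profile. The closest other ESCRT-III subunit was *Chmp6*, at rank 1732 with a distance of 1.53, and *Bag1* was at rank 613 with 1.24.

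The difference between the experiments was not used to choose the members, so it was tested. Over all probes limma called 0 at an adjusted p under 0.05 (0% of probes), although 11172 had an unadjusted p under 0.05 and the lowest adjusted p was 0.108. Limited to the 25523 probes above background, it called 17.0% of them. Among members, the calls in that smaller set were 2 of 11 probes, near the share over all probes above background. Both were among the 3 *Chmp4b* probes. The brightest *Chmp4b* probe was higher in experiment 1 by 1.12 in siControl and by 1.51 in siFxr1, and its fitted difference was 1.31 ± 0.22 (SE, 2.49-fold) with an adjusted p of 0.133 over all probes and of 0.0215 over those above background. The other two probes were higher by 0.97 and 0.68, with adjusted p of 0.0404 and 0.0999 over those above background. All 3 probes of the gene were higher in experiment 1 in both conditions, and the call depends on the processing. It also held over all probes under the other background corrections and normalizations tried, for 1 to 3 of the 3 probes. It did not hold with a trended prior or with the condition left out of the fit.

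*Chmp5* differed by 0.17 ± 0.23 (SE) between experiments, with an adjusted p of 0.794 over all probes, and in opposite directions in siControl (0.41) and siFxr1 (-0.06). *Chmp1a* was higher in experiment 1 by 0.47 ± 0.19 (SE), with an adjusted p of 0.339. *Chmp2b* differed by 1.09 ± 0.63 (SE), almost all of it from the siControl arrays. Myotube markers were higher in the same experiment as *Chmp4b*, and all 5 of 5 were well above background. The log2 of their summed signal was 16.76 in siFxr1 and 17.10 in siControl in experiment 1, against 14.64 and 15.16 in experiment 2. The brightest genes weigh most in such a sum. *Myog*, which drives the differentiation of myoblasts, was 2.12 higher in experiment 1. For the myoblast markers, the log2 of the summed signal was 16.50 to 16.94 on the 4 arrays. Single markers of other types also differed between experiments, by 2.87 for the epithelial *Krt18*, 1.12 for the T cell gene *Cd3e*, 0.97 for the myoblast gene *Cdh15* and -1.35 for the endothelial *Pecam1*, whereas *Ptprc*, *Epcam* and *Cdh1* were not well above background on any array. *Krt18* was also higher in siFxr1 than in siControl, by 1.62 in experiment 1 and 2.38 in experiment 2. In siControl it was well above background on 1 array only. None of these markers, myotube genes included, was called over all probes, and neither was *Chmp4b*. The adjusted p (limma, over all probes) was 0.108 for *Myog*, *Ckm*, *Myh1* and *Myh3* and 0.173 for *Mybph*, against 0.133 for *Chmp4b*. Calls of the markers among probes above background are not given here. Whether differentiation had a part in the *Chmp4b* difference was not tested, fewer or more cells of a type and less or more RNA per cell cannot be told apart in such samples, and experiment and slide cannot be told apart.

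**Figure D4:**
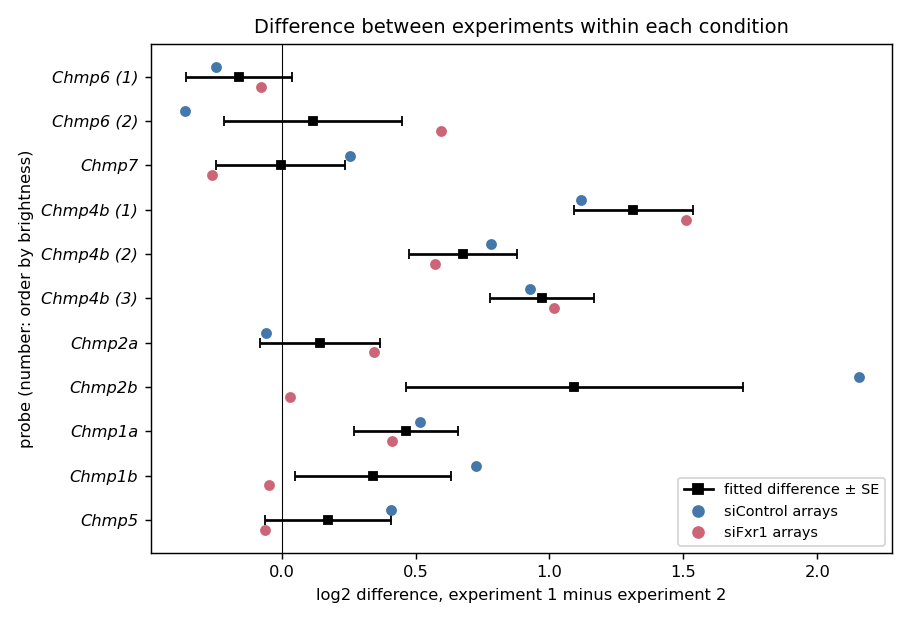
Log2 difference of experiment 1 minus experiment 2 (horizontal axis) for the 11 member probes above background (vertical axis), with the fitted difference and its SE in black and the differences within siControl in blue and within siFxr1 in red. The 3 *Chmp4b* probes lie to the right of 0 in both conditions, at fitted differences of 1.31, 0.68 and 0.97, whereas *Chmp5* lies at 0.17.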

How the data were processed

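RNA of C2C12 cells was measured on 4 one-colour Agilent arrays, grouped by the labels. The authors deposited for each array the spot intensity of Agilent Feature Extraction 10.7.3.1, corrected for background within the array, and a normalized table of intensity values, used as an alternative. In R 4.3.3 with limma 3.58.1, log2 of the deposited background-corrected intensity was quantile-normalized between arrays over 59305 spots that are not controls. Outlier spots were then set to missing, and spots of a probe were averaged. lmFit and eBayes were fitted over 55681 probes with the condition as the only term, or with condition and experiment for the comparison of experiments. Unless stated, the SE of a difference between conditions is from the fit without the experiment. It therefore includes differences between the experiments. Limma, the quantile method and the B threshold follow the study's methods, which give no model formula. The scripts were tested on simulated data. A probe was well above background with the software's mark on at least 0.5 of its spots. Probe positions come from the array's annotation on mm9, and whether they lie in exons or untranslated parts was not analysed here.

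The members and gene lists were chosen with earlier results of these data known. Genes are given by their brightest probe, others beside it. Named are all members, *Fxr1*, genes of ESCRT lists with the 2 largest differences per list or at least 2-fold in both experiments, genes within 100 kb of the *Chmp5* probe, and the 5 nearest profiles. The replicate numbers are experiments in the labels and pair the samples: after the mean of each condition was taken off, arrays of the same number correlated at 0.714. An exact permutation test of 2 against 2 arrays cannot give p below 0.333, so none was used. The study describes the 2 arrays of a condition as biological replicates. Beside the myoblast and myotube markers, 3 leukocyte, 3 endothelial and 3 epithelial markers were checked by the brightest probe. Well above background on every array were 1, 2 and 0 of them, and on none 1, 0 and 2. The endothelial gene *Kdr* is counted on every array by its brightest probe, but its other probe was well above background on none. The number of arrays limits the precision.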

Additional observations from a re-analysis of the deposited data

How the results depend on the processing

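Counts of probes called between conditions were 0 under all 12 alternatives. With the experiment as a replicate block, the count stayed 0 with a lowest adjusted p of 0.535, and the *Chmp5* difference stayed -1.89. *Chmp5* differed by -2.10 to -1.69 when 1 array was left out and stayed the one member at least 2-fold lower in both experiments under the 5 other background corrections and normalizations, a check added after seeing the data. Its difference against the median of the 7 detected partners, -1.69, a choice of partners added after seeing the data, ran from -1.90 to -1.49 without 1 array. With *Chmp4c*, which was not detected, among 8 partners it was -1.79 and ran from -1.97 to -1.68. The count between experiments, 0 of all probes, was 4471 with normexp, 4197 without background correction, 3686 with the median minus background, 5846 with 75th percentile scaling, 5450 with the authors' table, 4340 with the filter on dim probes and 308 with a trended prior. It stayed 0 with the condition left out of the fit. The filter tests fewer probes, and the cause of the other changes was not tested. *Chmp4b* was called in 6 of these settings, with log2 differences from 1.31 to 1.86 and adjusted p (limma) from 0.00238 to 0.0225. The lowest of these came with percentile scaling, where every member probe had the same SE, 0.48. That adjusted p therefore does not reflect the spread of the single probe. Percentile scaling moved the median difference between experiments from 0.07 to 0.15. Without 1 array, signs changed for *Chmp1a*, *Chmp1b*, *Chmp2b* and *Chmp4b* (brightest probe -1.12 to 0.39). *Chmp6* moved to -0.63 at most. *Bag1*, at -0.66 between conditions in the main setting, ran from -0.85 to -0.53 under the other background corrections and normalizations. Leaving out an array leaves no residual degrees of freedom for the comparison of experiments, so it was not run.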
